A study of Mus musculus with 2 samples.

Results

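GABAergic nuclei carrying transcripts of the transcription factors Gata2, Gata3, Tal1 or Pax5 were examined in the mouse ventral tegmental area (VTA), and are called Gata-type nuclei here. The name also covers nuclei in which Pax5 was the only 1 of these factors seen. They were chosen by UMI counts, a UMI being 1 captured transcript molecule. A member had at least 500 UMIs, at least 1% of them from 6 neuronal genes (Snap25, Syt1, Meg3, Snhg11, Rbfox3, Nefl), and at least 2 UMIs and 0.04% from the GABA genes Gad1, Gad2 and Slc32a1. It had under 0.1% from Slc6a3, Slc18a2, Ddc and Th, no Sst UMI, and more UMIs of the 4 factors together than of Meis2, Pax6 and Dlx6os1 together. The rule took 318 of 27850 barcodes, 204 of 13736 in the CCI library and 114 of 14114 in the WT library. These measured values made the choice, so the levels of the rule's own genes are described and not tested.

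The study profiled the VTA of adult mice in 2 libraries of 10x 3' single-nucleus chemistry. The CCI library came from mice with chronic neuropathic pain after constriction injury to the left sciatic nerve, the right one being exposed and left untied. The WT library came from mice that the labels call wild type, and the strain of neither is given in the sources used here. There was 1 library a group, the numbers of animals pooled and the hemisphere sampled are not given in the sources used here, and the labels describe an enzymatic digestion of adult brain tissue where the design speaks of nuclei. A difference between CCI and WT therefore has no replicate check, no p was computed for it, and its intervals cover counting error only.

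GABAergic neurons of the midbrain arise from progenitors in which Gata2, Gata3, Tal1 and its relatives act as selector genes, directing cells to an inhibitory fate. Gata and Tal proteins bind DNA together with LIM-domain partners, and Zfpm2 encodes a cofactor that binds Gata proteins. Meis2 and Pax6 are homeodomain factors found in several other GABAergic populations of the forebrain and midbrain. Pax5 is a paired-box factor needed, with Pax2, to form the midbrain and its border with the hindbrain. In the VTA, GABAergic neurons project locally onto dopamine neurons and to distant targets.

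The CCI library was deeper than the WT library. The median member had 7453.5 UMIs and 3237.5 genes in CCI, against 2497.5 UMIs and 1484 genes in WT, and the members held 1687908 UMIs in CCI and 319063 in WT. Mitochondrially encoded UMIs had a median share of 0.193% in CCI members and 0.494% in WT members. Scrublet called 19 CCI members (9.31%) and 15 WT members (13.2%) as doublets; they were kept, and removing them is among the alternatives. The libraries shared 54 barcode sequences, and no sequence was a member in both.

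Gata3 and Pax5 were the factors that brought most nuclei into the gate. Gata3 stood at 94.2 CPM (UMIs per 1000000 UMIs of the class) in CCI members, with a UMI in 53.4% of them, and at 157 CPM in WT members, with a UMI in 37.7%. Pax5 stood at 171 CPM and 43.6% of nuclei in CCI, against 251 CPM and 50% in WT. Tal1, a basic helix-loop-helix factor, reached 33.2 CPM in CCI and 50.1 CPM in WT, and Gata2 reached 16.6 CPM in CCI and 25.1 CPM in WT. All 4 factors were thus lower on this scale in CCI than in WT, and the rule admits a nucleus on a single UMI whatever its depth. After each nucleus was thinned to 1000 UMIs, 9.80% of CCI and 18.6% of WT members still showed Gata3, and 12.7% of CCI and 23.0% of WT members still showed Pax5. The GABA genes stood at 336 CPM for Gad2 in CCI and 486 CPM in WT, at 236 CPM for Gad1 in CCI and 323 CPM in WT, and at 133 CPM for Slc32a1 in CCI and 172 CPM in WT.

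Many members, and most of those in WT, entered at the edge of the rule. Exactly 1 UMI of the 4 factors was seen in 83 CCI and 84 WT members, 2 UMIs in 49 CCI and 22 WT members, and 3 or more in 72 CCI and 8 WT members. Exactly 2 UMIs of the GABA genes were held by 13 CCI and 64 WT members. Just outside the rule, 48 CCI and 130 WT nuclei lacked 1 GABA UMI, 15 CCI and 3 WT nuclei carried an Sst UMI, and 15 CCI and 5 WT nuclei had equal counts of the 2 factor groups. A UMI of Meis2, Pax6 or Dlx6os1 was also present in 14 CCI and 3 WT members. Nuclei of a gate for oligodendrocytes, which should lack the factors, carried one in 1.13% of 1681 CCI nuclei (median 2005 UMIs) and 0.855% of 3392 WT nuclei (median 736 UMIs). In neurons with Slc17a6 and without GABA genes the share was 2.13% in CCI (median 7660 UMIs) and 2.04% in WT (median 2327 UMIs).

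Most members showed 1 of the 4 factors. Gata3 alone was seen in 62 CCI and 38 WT members and Pax5 alone in 53 CCI and 50 WT members. Tal1 alone was seen in 12 CCI and 11 WT members and Gata2 alone in 13 CCI and 6 WT members. The most frequent pairs were Gata3 with Tal1 in 16 CCI and 1 WT members, Gata3 with Pax5 in 15 CCI and 2 WT, Tal1 with Pax5 in 15 CCI and 4 WT, and Gata2 with Gata3 in 11 CCI and 1 WT. Pax5 shared a nucleus with any of the other 3 factors in 17.6% of CCI and 6.14% of WT members. A factor that is not seen in so shallow a nucleus is not shown to be absent from it.

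**Figure D1:**
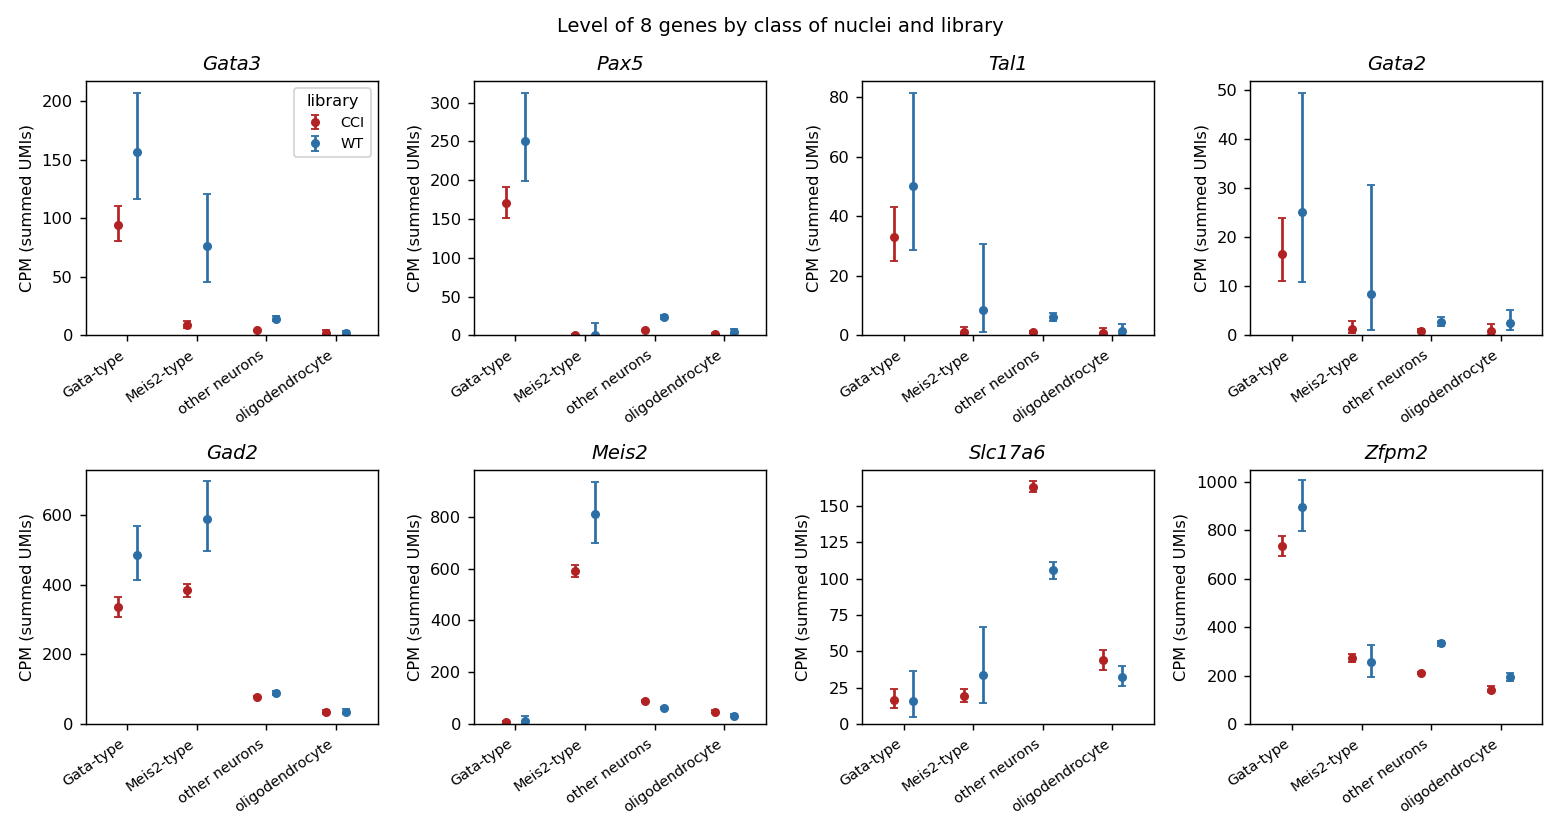
Levels in CPM (linear axes) of 8 genes in Gata-type nuclei, Meis2-type nuclei, other neurons and the oligodendrocyte gate, CCI in red on the left and WT in blue on the right; bars are exact Poisson 95% intervals, which cover counting error only. Gata3 is at 94.2 CPM in CCI and 157 CPM in WT Gata-type nuclei, and Zfpm2, which the rule did not use, is at 736 CPM in CCI and 896 CPM in WT.

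In build GRCm38, Gata3 lies at chr2:9857078-9890034 on the minus strand, Pax5 at chr4:44524757-44710487 on the minus strand, Tal1 at chr4:115056426-115071755 on the plus strand and Gata2 at chr6:88193891-88207032 on the plus strand. Exons of Gata3 overlap Gm13256 and those of Pax5 overlap 5730488B01Rik and Gm12462, and since the sources used here do not say whether counting used strand, reads of such pairs may not be separable. The start-site windows of Gata3 and Tal1 are shown because both are factors of the rule and each holds a match to the letters Gata proteins are known to bind. The search was for the letters GATA with A or T before and A or G after them, on both strands, in the 250 bases before and 50 after a start, from RefSeq on GRCm38.p6, and 9778 of 32851 such windows (29.8%) hold at least 1. Capitals mark the matches, and a match is not a bound site. The Gata3 window is chr2:9878551-9878850, minus strand, and the Tal1 window, 1 of 2 for this gene, is chr4:115056176-115056475, plus strand.
Gata3: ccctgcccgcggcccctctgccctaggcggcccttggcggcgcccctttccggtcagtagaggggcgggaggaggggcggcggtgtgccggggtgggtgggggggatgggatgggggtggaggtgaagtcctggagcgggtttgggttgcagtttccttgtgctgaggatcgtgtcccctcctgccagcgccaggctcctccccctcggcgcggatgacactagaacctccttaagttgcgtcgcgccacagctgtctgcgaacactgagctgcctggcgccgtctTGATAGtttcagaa
Tal1: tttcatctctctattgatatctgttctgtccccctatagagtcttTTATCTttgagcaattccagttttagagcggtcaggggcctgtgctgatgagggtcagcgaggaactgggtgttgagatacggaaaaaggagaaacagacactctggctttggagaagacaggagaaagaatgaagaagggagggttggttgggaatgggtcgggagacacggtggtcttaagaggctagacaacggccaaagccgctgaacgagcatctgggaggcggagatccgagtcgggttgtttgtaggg

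The label was checked against markers that the rule did not use. Zfpm2 was at 736 CPM in CCI and 896 CPM in WT, and Slc6a5, the glycine transporter of glycinergic neurons, had 3 UMIs in CCI and 2 in WT. Slc17a6, the glutamate transporter of subcortical excitatory neurons, was at 16.6 CPM in CCI and 15.7 CPM in WT, below the 43.9 CPM of the CCI oligodendrocyte gate. The serotonergic and cholinergic lists each summed to 2 UMIs in CCI and 0 in WT, with 2 of the 3 markers of each at 0 in both libraries. Markers of oligodendrocytes were present in the members, at a sum of 554 CPM in CCI and 1655 CPM in WT.

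Meis2-type nuclei, gated by the mirror of the rule, numbered 595 in CCI and 99 in WT and were set against the members to ask what accompanies the 2 factor groups. Gata-type nuclei were higher in Hydin, Col24a1, Zfpm2, Tcf7l2, Chd7 and the glycine receptor gene Glra1, and lower in Isl1, Cdh23, Meis1, Pde11a and Erbb4. Not all of these held across the members. With Gata2, Gata3 or Tal1 and no Pax5, Col24a1 was at 3.29 CPM in CCI and 6.399 CPM in WT (Meis2-type 5.77 and 0). With Pax5 alone, Tcf7l2 was at 9.85 CPM in CCI and 29.0 CPM in WT (Meis2-type 38.8 and 34.0). UMIs were summed per library and class and tested with edgeR's quasi-likelihood test, with the library as a block and Benjamini-Hochberg adjustment over 13833 genes. At an adjusted p under 0.05, 185 genes (1.34%) were higher and 193 (1.4%) lower, against 1475 genes at an unadjusted p under 0.05. Of the 378 called, 320 moved the same way in both libraries. That direction can rest on 1 UMI, as for Adamtsl3 in WT, with 0 UMIs in Gata-type and 1 in Meis2-type nuclei. The call rests on 2 libraries: DESeq2 called 49 higher and 35 lower, and edgeR without the block 27 higher and 12 lower, all of them among the 378. Hydin, Col24a1, Acvr1c, Tmem132cos, Tcf7l2, Chd7, Stxbp6, Nxph1, Cdh23, Meis1, Pde11a, Zfpm2, Ldb2, Ebf1, Glra1, Grik1, Htr2c and Kcnh1 passed under all 8 alternative fits, and the other genes named from this comparison lost their call, or had no adjusted p from DESeq2, under at least 1.

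Cofactor and transcription factor genes differed between the types. Zfpm2 was at 736 CPM in CCI and 896 CPM in WT Gata-type nuclei, against 272 CPM in CCI and 255 CPM in WT Meis2-type nuclei (log2 fold change 1.52, edgeR adjusted p = 3.35e-23). Tcf7l2, a DNA-binding effector of Wnt signalling, was at 123 CPM in CCI and 84.6 CPM in WT Gata-type nuclei, against 38.8 CPM in CCI and 34.0 CPM in WT Meis2-type nuclei (log2 fold change 1.63, edgeR adjusted p = 8.3e-15). Both libraries gave the same order for these genes. Bcl11b, a zinc-finger factor, was at 75.2 CPM in CCI and 119 CPM in WT Gata-type nuclei, against 15.7 CPM in CCI and 59.4 CPM in WT Meis2-type nuclei (log2 fold change 2.11, edgeR adjusted p = 1.49e-15), a call lost without the library block. Ebf1, an early B-cell factor family member, was at 100 CPM in CCI and 113 CPM in WT Gata-type nuclei, against 47.8 CPM in CCI and 55.2 CPM in WT Meis2-type nuclei (log2 fold change 1.09). Against all other neurons, the comparison given further on, Ebf1 was lower (log2 fold change -0.61, edgeR adjusted p = 0.000446). That call was lost with DESeq2 and without the library block. Pax8, a paired-box gene of the same subfamily as Pax5, had 37 UMIs in CCI and 6 in WT Gata-type nuclei, against 1 in CCI and 0 in WT Meis2-type nuclei (edgeR adjusted p = 2.07e-08). Of 34 midbrain and hindbrain GABAergic lineage factors, 27 were tested, 6 were higher (Zfpm2, Ldb2, En1, Pax8 and Tcf7l2 among them) and 2 lower (Lef1, Nr2f2), with a median log2 difference of 0.54 against 0.01 over all genes tested. Lef1 had no UMI in either type in WT, so its call rests on CCI.

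A start-site window of Tcf7l2 is shown because the level of this gene differs between the types here and, further on, between nuclei with Pax5 alone and nuclei with Gata2, Gata3 or Tal1 and no Pax5. Of its 2 windows the first that holds a match was taken, so a match was sure to be present. It is chr19:55895071-55895370 on the plus strand of GRCm38.p6 and holds 2 of the Gata-type motifs defined above, in capitals. The gene spans chr19:55741820-55933654, so this start lies inside the gene and not at its outer end. Among genes with a window, 2289 of the 10309 tested (22.2%) hold a match. The share was 34 of 135 (25.2%) for those called higher and 35 of 143 (24.5%) for those called lower.
Tcf7l2: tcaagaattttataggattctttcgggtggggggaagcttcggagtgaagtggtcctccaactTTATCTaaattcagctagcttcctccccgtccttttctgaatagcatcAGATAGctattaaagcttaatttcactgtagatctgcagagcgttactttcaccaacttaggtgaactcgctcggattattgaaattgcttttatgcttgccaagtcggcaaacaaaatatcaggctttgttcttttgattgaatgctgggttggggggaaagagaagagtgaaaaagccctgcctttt

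The forebrain factor list moved in both directions, with 2 of 13 tested genes higher (Bcl11b, Ebf1) and 3 lower (Isl1, Meis1, Zfhx3), a median of -0.51. Isl1, a LIM-homeodomain factor of striatal and motor neurons, had 1 UMI in CCI and 0 in WT Gata-type nuclei, against 116 in CCI and 2 in WT Meis2-type nuclei (edgeR adjusted p = 1.24e-09). Meis1, a relative of the gate gene Meis2, was at 11.8 CPM in CCI and 31.3 CPM in WT Gata-type nuclei, against 73.4 CPM in CCI and 38.2 CPM in WT Meis2-type nuclei (log2 fold change -2.20, edgeR adjusted p = 2.85e-12). Its size differed between libraries, at a log2 ratio of -2.63 in CCI and -0.29 in WT, and its exons overlap Gm16140.

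The genes higher in Gata-type nuclei with other roles included Hydin, Col24a1 and Nxph1. Hydin, known for its role in the motile cilium, was at 43.8 CPM in CCI and 59.5 CPM in WT Gata-type nuclei, against 4.15 CPM in CCI and 4.24 CPM in WT Meis2-type nuclei (log2 fold change 3.46, edgeR adjusted p = 2.33e-17). Col24a1, a fibrillar collagen chain, was at 51.5 CPM in CCI and 59.5 CPM in WT, against 5.77 CPM in CCI and 0 in WT Meis2-type nuclei (log2 fold change 3.28, edgeR adjusted p = 4.08e-19). Acvr1c, a receptor for activins and nodal, followed with 26.7 CPM in CCI and 43.9 CPM in WT, against 4.61 CPM in CCI and 4.24 CPM in WT Meis2-type nuclei. Chd7, a chromatin remodeller, was at 164 CPM in CCI and 116 CPM in WT, against 50.1 CPM in CCI and 46.7 CPM in WT (log2 fold change 1.61). Stxbp6, a syntaxin-binding protein gene, was at 255 CPM in CCI and 285 CPM in WT, against 81.2 CPM in CCI and 127 CPM in WT (log2 fold change 1.58). Nxph1, a secreted ligand of neurexins, was at 1516 CPM in CCI and 1859 CPM in WT, against 625 CPM in CCI and 467 CPM in WT (log2 fold change 1.57, edgeR adjusted p = 2.83e-26). Colgalt2, Tmem132cos, Sema3f and Itga2, at log2 fold changes of 1.80, 1.73, 1.66 and 1.59, complete the 12 highest. In WT the counting interval of each of these last genes included a ratio of 0.

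The genes lower in Gata-type nuclei included Cdh23, Pde11a and Erbb4. Cdh23, a cadherin of hair-cell tip links, was at 11.3 CPM in CCI and 15.7 CPM in WT, against 76.4 CPM in CCI and 59.4 CPM in WT Meis2-type nuclei (log2 fold change -2.58, edgeR adjusted p = 3.92e-15). Pde11a, a phosphodiesterase of cyclic nucleotides, was at 20.7 CPM in CCI and 6.27 CPM in WT, against 71.8 CPM in CCI and 59.4 CPM in WT (log2 fold change -1.90). Erbb4, the neuregulin receptor of many GABAergic interneurons, was at 412 CPM in CCI and 762 CPM in WT, against 1120 CPM in CCI and 1180 CPM in WT (log2 fold change -1.08, edgeR adjusted p = 1.25e-13). The others among the 12 lowest were Sfta3-ps, Pax6os1, Ecel1, Npffr1, Eepd1, Adamtsl3, Iqgap2 and Coch, between -5.01 and -1.95. Each of these had at most 2 UMIs in Gata-type and 5 in Meis2-type nuclei in WT. Their WT counting intervals all included a ratio of 0, so these calls rest mainly on CCI. Pax6os1 is an antisense transcript named after Pax6, a gene of the gate, so its difference may in part be set by the gate. Of the neuropeptide list 10 were tested, none was higher and Gal and Pmch were lower. Neither Gal nor Pmch had a UMI in either type in WT, so both calls rest on CCI (log2 ratios -4.08 and -2.21).

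Receptor and channel genes differed in both directions. Glra1, the adult glycine receptor alpha subunit, was at 103 CPM in CCI and 110 CPM in WT Gata-type nuclei, against 34.8 CPM in CCI and 59.4 CPM in WT Meis2-type nuclei (log2 fold change 1.48, edgeR adjusted p = 2.12e-11). Gabrb2, a beta subunit of GABA-A receptors, was at 697 CPM in CCI and 768 CPM in WT, against 347 CPM in CCI and 543 CPM in WT (log2 fold change 0.86). Of 12 GABA-A subunit genes tested 2 were higher and 1 lower, with a median of -0.19. Htr2c, a serotonin receptor, was at 1191 CPM in CCI and 1561 CPM in WT, against 556 CPM in CCI and 700 CPM in WT (log2 fold change 1.15, edgeR adjusted p = 2.52e-16). Grik1, a kainate receptor subunit, was lower at 249 CPM in CCI and 201 CPM in WT, against 513 CPM in CCI and 365 CPM in WT (log2 fold change -0.98), as was the potassium channel gene Kcnh1 (34.95 CPM in CCI and 43.9 CPM in WT, against 104 CPM in CCI and 63.7 CPM in WT). Among 29 potassium channel genes tested 3 were higher and 6 lower. None of the 4 GABA uptake and breakdown genes tested was called.

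**Figure D2:**
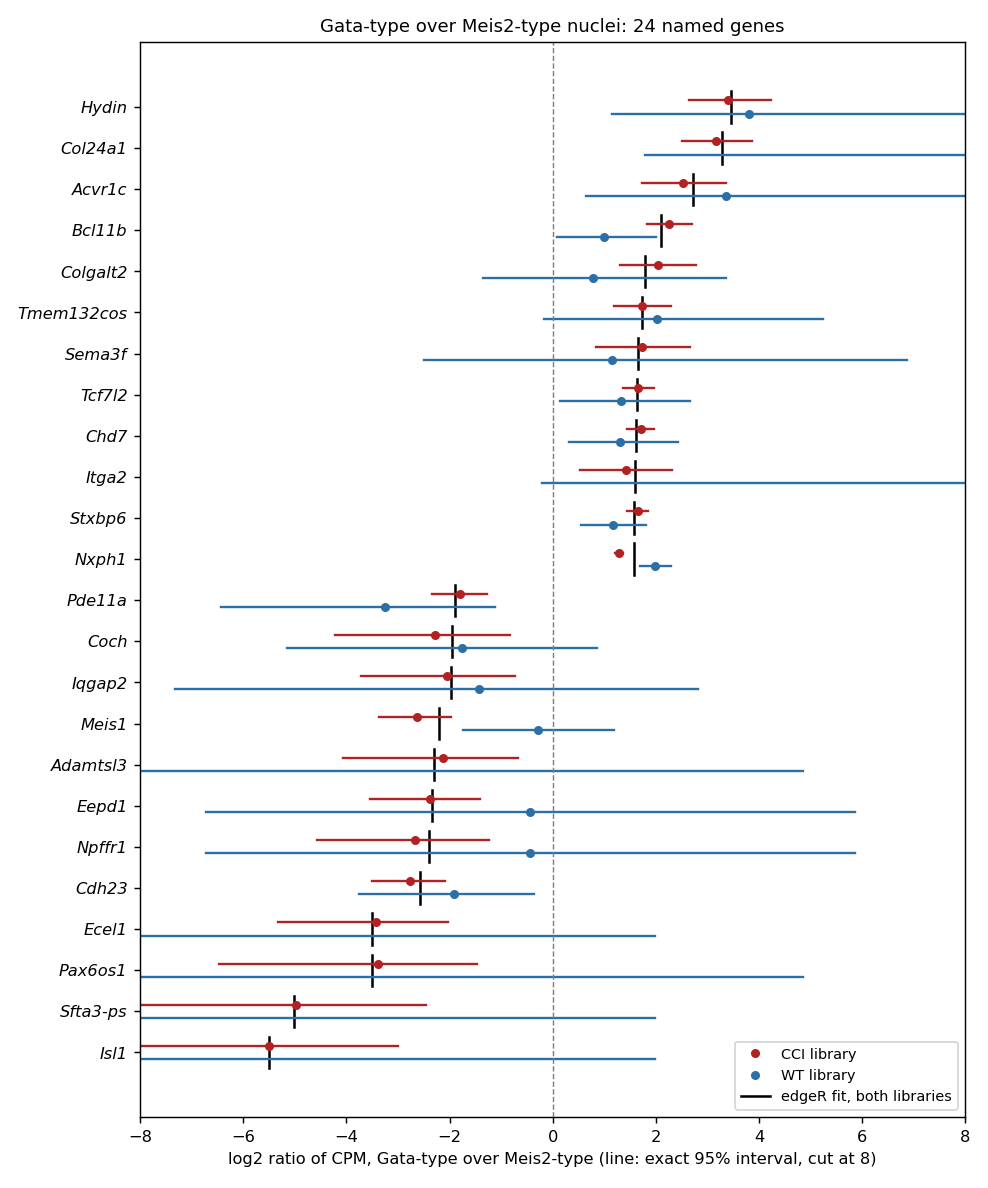
Log2 ratio of Gata-type over Meis2-type nuclei for the 24 named genes, CCI in red and WT in blue, with exact 95% intervals for counting error (cut at 8) and a black tick for the edgeR fit. Points are missing where a class had 0 UMIs in that library, as Col24a1 in WT; Hydin has the fit at 3.46 and Isl1 was the lowest.

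Set against all other neurons of the library (6536 in CCI, 6506 in WT), the members carried more Zfpm2, Pax8, Pvalb and Glra1 and far less Cacna2d1 and Slc17a6. In the same fit 397 genes (2.87%) were higher and 546 (3.95%) lower; DESeq2 called 79 higher and 123 lower, and edgeR without the block 46 higher and 95 lower. Zfpm2 was at 736 CPM in CCI and 896 CPM in WT members, against 210 CPM in CCI and 334 CPM in WT other neurons (log2 fold change 1.61). Pax8 was at 21.9 CPM in CCI and 18.8 CPM in WT, against 1.198 CPM in CCI and 2.40 CPM in WT (log2 fold change 3.84). The GABA uptake and breakdown list, of which 3 of 4 tested genes were higher, held the GABA transaminase gene Abat (log2 fold change 0.55) and the dehydrogenase gene Aldh5a1 (0.82) among those higher. The rule requires GABA genes of the members only, so higher levels of genes of GABAergic neurons are in large part set by it. None of these 4 genes was called against Meis2-type nuclei. Pvalb, a calcium-binding protein of fast-spiking neurons, was at 17.2 CPM in CCI and 15.7 CPM in WT, against 5.50 CPM in CCI and 7.62 CPM in WT (log2 fold change 1.52, edgeR adjusted p = 0.000364). The synaptotagmin gene Syt2 (1.11), Kcnc1 (0.67), Scn1a (0.48) and Cacna2d2 (1.07), a calcium channel auxiliary subunit, were also higher. Lists that hold several of these genes moved in both directions. Of 27 lineage factors tested 8 were higher and 3 lower (Lef1, Foxp2, Lmo3). Of 8 calcium-binding and interneuron genes 1 was higher and 3 lower, and of 29 potassium channel genes 2 and 9. Sodium, calcium and HCN channel genes, 24 tested, had 6 higher and 6 lower, and 17 vesicle release genes 3 and 4. Against Meis2-type nuclei Pvalb, Syt2, Kcnc1 and Scn1a were not called, and Cacna2d2 was (0.60). Without the library block Abat, Aldh5a1, Pvalb, Syt2, Kcnc1 and Scn1a lost their calls, and with DESeq2 Abat, Aldh5a1 and Pvalb did.

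Genes lower in the members included Cacna2d1, Slc17a6 and Calb1. The rule requires GABA genes and removes nuclei rich in dopaminergic genes, while the other neurons keep dopaminergic and glutamatergic nuclei, so lower levels of genes of those neurons are in large part set by the rule. Cacna2d1, another auxiliary subunit of calcium channels, was at 81.2 CPM in CCI and 34.5 CPM in WT members, against 774 CPM in CCI and 581 CPM in WT other neurons (log2 fold change -3.39, edgeR adjusted p = 5.69e-60). Slc17a6 was at 16.6 CPM in CCI and 15.7 CPM in WT, against 163 CPM in CCI and 106 CPM in WT (log2 fold change -3.21, edgeR adjusted p = 1.39e-35). Calb1, a calcium-binding protein of many dopamine neurons, was at 9.48 CPM in CCI and 9.40 CPM in WT, against 51.8 CPM in CCI and 26.02 CPM in WT. Erbb4 was lower by 1.85, and the peptide genes Adcyap1 and Cck by 3.56 and 2.24. Tcf7l2 did not differ by this test (log2 -0.17, edgeR adjusted p = 0.643), whereas Hydin (2.58), Col24a1 (2.17), Chd7 (1.29) and Nxph1 (1.05) were higher here as well.

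Within the members, nuclei with Pax5 and none of the other factors were set against nuclei with Gata2, Gata3 or Tal1 and no Pax5, to see how the members vary among themselves. Pax5 nuclei were high in Col24a1, Hydin, Synpr and Zfpm2, and Gata2, Gata3 or Tal1 nuclei in Tcf7l2, Pld5, Tshz2 and Zfhx3. Pax5 nuclei numbered 53 in CCI and 50 in WT, the others 115 in CCI and 57 in WT. In an edgeR fit of the 4 sums with the library as a block, 82 of 5291 genes (1.55%) were higher and 91 (1.72%) lower in Pax5 nuclei, with 558 genes at an unadjusted p under 0.05. That fit has 1 residual degree of freedom; DESeq2 called 8 genes higher and 6 lower, the fit without doublets 42 higher and 36 lower, and the fit with at least 2 factor UMIs a nucleus 18 higher and 13 lower.

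Col24a1 was at 93.6 CPM in CCI and 123 CPM in WT Pax5 nuclei, against 3.29 CPM in CCI and 6.399 CPM in WT Gata2, Gata3 or Tal1 nuclei, which held 3 UMIs in CCI and 1 in WT (log2 fold change 4.59, edgeR adjusted p = 5.47e-15). Hydin was at 73.9 CPM in CCI and 101 CPM in WT, against 12.1 CPM in CCI and 12.8 CPM in WT. Synpr, a synaptic vesicle protein gene, was at 296 CPM in CCI and 239 CPM in WT, against 52.7 CPM in CCI and 109 CPM in WT (log2 fold change 2.11). Zfpm2 was at 1064 CPM in CCI and 1202 CPM in WT, against 428 CPM in CCI and 544 CPM in WT (log2 fold change 1.25, edgeR adjusted p = 1.94e-14). Synpr, Zfpm2, Pld5 and Zfhx3 kept their calls under all 7 alternative settings. The Col24a1 level of Gata2, Gata3 or Tal1 nuclei was thus close to that of Meis2-type nuclei given above, and the high values lay in nuclei with Pax5. Bcl11b, Mdga1, B3glct and Necab1, with fold changes of 2.05 to 2.29 on the log2 scale, were also among the 8 highest.

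Tcf7l2 was at 9.85 CPM in CCI and 29.0 CPM in WT Pax5 nuclei, against 196 CPM in CCI and 147 CPM in WT Gata2, Gata3 or Tal1 nuclei (log2 fold change -3.60, edgeR adjusted p = 2.51e-16). Pld5, of the phospholipase D family, was at 101 CPM in CCI and 79.6 CPM in WT, against 461 CPM in CCI and 224 CPM in WT (log2 fold change -2.04, edgeR adjusted p = 9.17e-17). Zfhx3, a large homeodomain factor, was at 335 CPM in CCI and 304 CPM in WT, against 993 CPM in CCI and 742 CPM in WT (log2 fold change -1.47, edgeR adjusted p = 5.55e-16). Both libraries placed these 3 genes on the same side. Tshz2, a teashirt zinc-finger factor, was at 96.0 CPM in CCI and 79.6 CPM in WT, against 365 CPM in CCI and 192 CPM in WT (log2 fold change -1.79). L3mbtl4, Bcl11a, Syt6, Fign and Cacna1i, between -2.15 and -1.73, complete the 8 lowest. The lineage factors Foxp2 (-1.38), Foxp1 (-0.68) and Lmo3 (-1.48) and the forebrain factor Ebf1 (-1.69) were also lower. DESeq2 did not call Tshz2, Foxp1, Foxp2, Ebf1 or, among the higher genes, Bcl11b, and gave no adjusted p for Col24a1, Hydin and Tcf7l2. Among genes with a start-site window, 880 of 4078 tested (21.6%) hold a Gata-type motif, 18 of 58 (31.0%) of those higher in Pax5 nuclei and 14 of 71 (19.7%) of those lower.

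Receptor genes split the members as well. In Pax5 nuclei Glra1 (1.17), Htr2c (0.77; 1574 CPM in CCI and 1875 CPM in WT, against 837 CPM in CCI and 1273 CPM in WT), Gabrb1 (0.69), Kcnj6 (1.13), Kcnt2 (1.04) and Gfra1 (1.12) were higher, and Chrm2 (-0.97), Kcnq5 (-1.19), Kcnb2 (-0.88), Cacna2d3 (-1.14) and Grik4 (-0.91) lower, on the log2 scale. DESeq2 called none of these 11 genes. Of 11 GABA-A subunit genes 2 were higher and none lower, and none of 4 GABA uptake and breakdown genes passed the test. The 36 CCI and 7 WT nuclei with both kinds of factor were too few in WT to be fitted. In CCI their levels stood near those of Pax5 nuclei in Col24a1 (124 CPM), Hydin (89.2 CPM), Zfpm2 (1138 CPM) and Synpr (308 CPM). Tcf7l2 was at 64.8 CPM in these CCI nuclei, from 24 UMIs in 4 of 36 nuclei with 16 of them in 1 nucleus, and had 0 UMIs in the 7 WT nuclei. The 7 WT nuclei held 1 UMI of Col24a1 and 3 of Hydin.

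**Figure D3:**
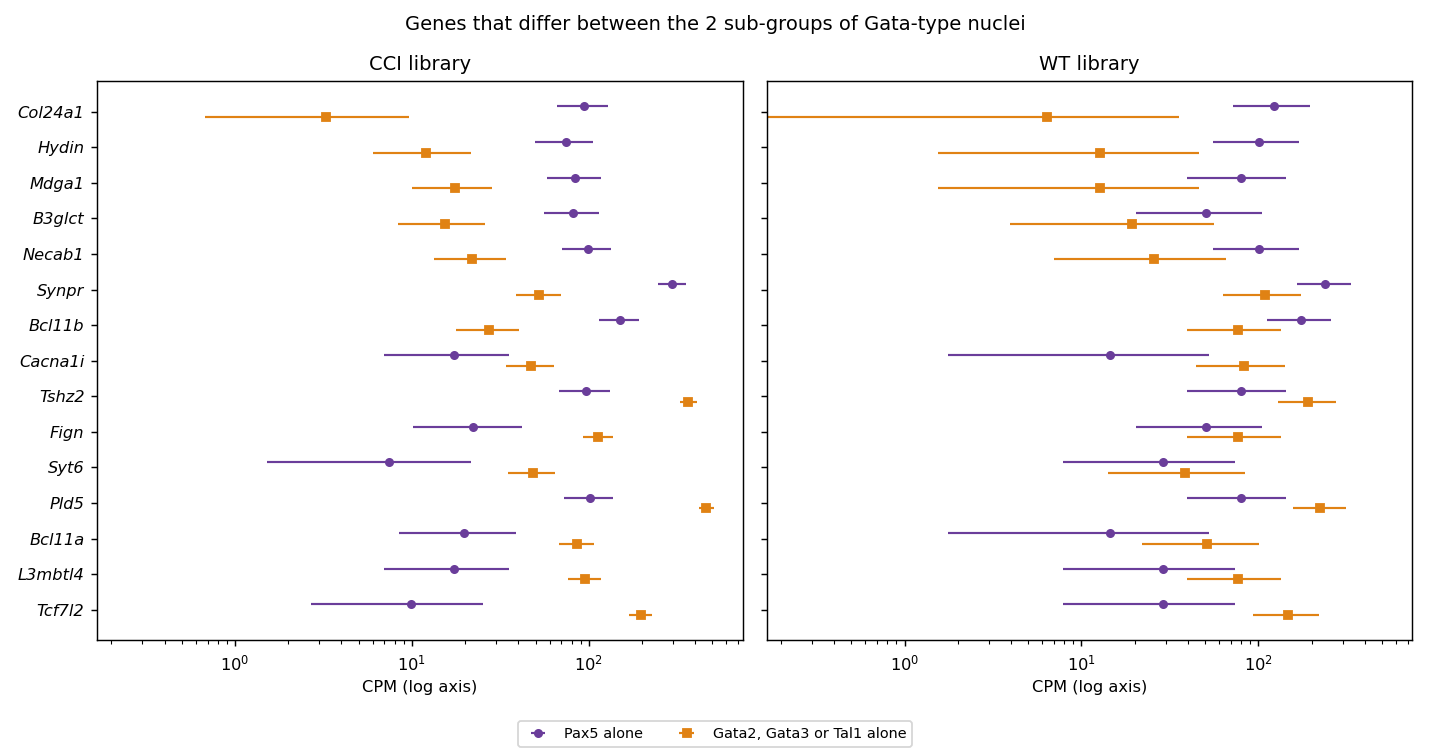
CPM on a log axis of 15 named genes, CCI panel left and WT panel right, in Pax5-alone nuclei (purple circles) and Gata2, Gata3 or Tal1 alone nuclei (orange squares), with exact Poisson 95% intervals, that of Col24a1 in WT running past the left edge. In CCI, Col24a1 is at 93.6 CPM in Pax5-alone nuclei and 3.29 CPM in the others, and Tcf7l2 at 9.85 CPM in Pax5-alone nuclei and 196 CPM in the others.

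Members made up 2.78% of CCI neurons (2.42 to 3.18, exact Clopper-Pearson 95% interval) and 1.697% of WT neurons (1.402 to 2.03), a log2 ratio of 0.71. Of nuclei that passed the GABA gene gate they were 15.0% of 1363 in CCI (13.1 to 17.0) and 20.4% of 559 in WT (17.1 to 23.98), a ratio of -0.45. The 2 denominators thus give opposite directions. Nuclei with Pax5 alone were 25.98% of CCI members and 43.9% of WT members. The gate counts UMIs and depth differs between the libraries; with nuclei thinned to 1000 UMIs before gating, the log2 ratio of the share of neurons was -2.60, from 5 CCI and 23 WT members, and with at least 4 GABA UMIs it was 2.79. No direction of the share is therefore read from these libraries.

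Within the members, 9735 genes had at least 20 UMIs over both libraries and were compared between CCI and WT by summed UMIs. The ratio was over 1.5-fold higher in CCI for 1877 of them (19.3%) and lower for 953 (9.79%), with a median log2 ratio of 0.06. With TMM scaling the counts were 1696 and 1098. These counts go by the point ratio whatever its interval, so a gene with few WT UMIs can pass by counting error. For 58 genes with 0 UMIs in 1 library, 3 counts stood in for the 0. The genes named are the 10 highest and 10 lowest by the interval bound nearest to 0 among 3627 with at least 100 UMIs. The ones higher in CCI included Ttn, Cdh6, Rtn1, Cacna2d3 and Sox2ot, and those lower included Erbb4, Nfia, Cept1, Ube3a and Qk. CCI members had a smaller share of Pax5-alone nuclei, a larger depth and less oligodendrocyte and mitochondrially encoded RNA, and the part of these in the gene differences was not tested.

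Cacna2d3, an auxiliary subunit of calcium channels, stood at 392 CPM in CCI members and 191 CPM in WT members (log2 ratio 1.04, interval 0.66 to 1.44). Cacna2d3 had ratios of 0.47 in Meis2-type nuclei and 0.32 in other neurons, so it was higher in CCI there as well. It was higher in CCI in Pax5-alone nuclei, at 239 CPM against 145 CPM in WT, and also in Gata2, Gata3 or Tal1 alone nuclei, at 558 CPM against 256 CPM in WT. The Cacna2d3 ratio was -0.018 when the GABA genes had to reach 0.1% of the UMIs, a rule that keeps 28 CCI and 51 WT members. Cdh6, a cadherin, was at 94.8 CPM in CCI and 25.1 CPM in WT (log2 ratio 1.92, interval 0.91 to 3.16), with 65 CCI and 7 WT nuclei carrying it; the Cdh6 ratio was 0.19 in Meis2-type nuclei and 0.32 in other neurons. Rtn1, a reticulon of the endoplasmic reticulum, was at 602 CPM in CCI and 298 CPM in WT (log2 ratio 1.02, interval 0.71 to 1.34), against ratios of 0.57 in Meis2-type nuclei and 0.40 in other neurons. Sox2ot, a long noncoding RNA that overlaps Sox2, was at 341 CPM in CCI and 169 CPM in WT, at a ratio of 1.01, while Meis2-type nuclei had 0.25 and other neurons -0.30. Cep164 (1.94), Gmps (1.52), Plekhh2 (1.87), Pdcd7 (1.46) and Slc25a4 (1.46) were higher in CCI at lower levels, below 100 CPM. In Meis2-type nuclei and other neurons, Cep164 had ratios of 0.33 and 0.41, Gmps 0.44 and 0.02, and Plekhh2 -0.04 and -0.19. Pdcd7 had 0.83 and 0.67 there, and Slc25a4 0.44 and 0.37. No test sets these ratios against those of the other types.

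Ttn, the giant sarcomere protein titin, was at 76.4 CPM in CCI and 3.13 CPM in WT (log2 ratio 4.61, interval 2.10 to 9.92), from 129 UMIs in CCI and 1 in WT. The CCI UMIs lay in 16 of 204 nuclei, at up to 34 in 1 nucleus, and 93 of them in nuclei with Gata2, Gata3 or Tal1 alone. The gene lies at chr2:76703980-76982547 on the minus strand and overlaps Gm13938.

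Erbb4 was at 412 CPM in CCI and 762 CPM in WT (log2 ratio -0.89, interval -1.10 to -0.67), against ratios of -0.08 in Meis2-type nuclei and -0.27 in other neurons. Erbb4 was at 435 CPM in CCI and 1024 CPM in WT Gata2, Gata3 or Tal1 alone nuclei, and at 485 CPM in CCI and 492 CPM in WT Pax5-alone nuclei; the difference between the sub-groups was not tested. Without the nuclei with most Erbb4 UMIs the ratio was -0.90, an alternative chosen after seeing the data. With nuclei thinned to 1000 UMIs before gating, which leaves 5 CCI and 23 WT members, the Erbb4 ratio was 0.39, and Thsd7b, Atxn2l and Qk also changed sign. Nfia, a nuclear factor I gene, was at 150 CPM in CCI and 310.3 CPM in WT (log2 ratio -1.04, interval -1.38 to -0.69) and overlaps E130114P18Rik. Cept1, an enzyme of phospholipid synthesis, was at 60.4 CPM in CCI and 154 CPM in WT (log2 ratio -1.35, interval -1.85 to -0.82) and overlaps Dennd2d and Dram2. Thsd7b was at 167 CPM in CCI and 310.3 CPM in WT (log2 ratio -0.89, interval -1.23 to -0.55), beside ratios of 0.39 in Meis2-type nuclei and -0.07 in other neurons. Ube3a, a ubiquitin ligase, was at 1429 CPM in CCI and 2109 CPM in WT, at -0.56, beside -0.47 in Meis2-type nuclei and -0.50 in other neurons. Qk, an RNA-binding protein gene abundant in glia, was at 242 CPM in CCI and 401 CPM in WT, at -0.73, beside -1.07 in Meis2-type nuclei and -0.99 in other neurons. Atxn2l was at -0.996, beside -1.05 in Meis2-type nuclei and -1.04 in other neurons. Ghitm (-1.25), Emc1 (-1.19) and Dcun1d1 (-1.18) were the other genes of the lowest 10.

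The gene lists showed which groups moved together between the libraries. Over all measured genes 19.3% were higher and 9.79% lower in CCI. All 13 mitochondrially encoded genes were lower in CCI, with a median log2 ratio of -1.25 and a sum of 2746 CPM in CCI and 6986 CPM in WT; the ratio was -1.23 in Meis2-type nuclei and -1.32 in other neurons. Of 9 measured oligodendrocyte markers 8 were lower, with a median of -1.33 and a sum of 554 CPM in CCI and 1655 CPM in WT. The median of the oligodendrocyte list was -1.03 in Meis2-type nuclei and -1.14 in other neurons. Of 25 measured nuclear genes of oxidative phosphorylation 11 were higher in CCI and 1 lower. Their median was 0.49, beside medians of 0.11 in Meis2-type nuclei and 0.09 in other neurons. The list summed to 1220 CPM in CCI and 1003 CPM in WT, a smaller log2 ratio of 0.28 (interval 0.11 to 0.46). Its 26 genes held 320 UMIs in WT, so a single gene can pass 1.5-fold by counting error. All 11 GABA-A receptor subunit genes measured stayed within 1.5-fold, at a median of -0.08, as did the 4 GABA uptake and breakdown genes.

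Ion channel and synaptic genes are read against the 19.3% of all genes higher and 9.79% lower in CCI. Of 24 sodium, calcium and HCN channel genes 7 were higher and 2 lower (median 0.27), with the T-type channel gene Cacna1g at a ratio of 1.57 and Cacna2d1 at 81.2 CPM in CCI and 34.5 CPM in WT, while Scn4b was at -1.12. The ratios of Cacna1g and Scn4b are the highest and lowest of this list, taken without regard to their intervals. Of 27 potassium channel genes 5 were higher and 1 lower (median 0.05); Kcnh7, of the ERG family, was at 473 CPM in CCI and 295 CPM in WT. Of 17 ionotropic glutamate receptor genes 3 were higher and none lower. Sv2c, a vesicle glycoprotein gene, was at 33.8 CPM in CCI and 94.0 CPM in WT. Among heat shock genes, 3 of 8 were higher, with Hsp90ab1 at 179 CPM in CCI and 116 CPM in WT (log2 ratio 0.63). Glucocorticoid-responsive genes held 3 lower members of 9 and none higher.

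**Figure D4:**
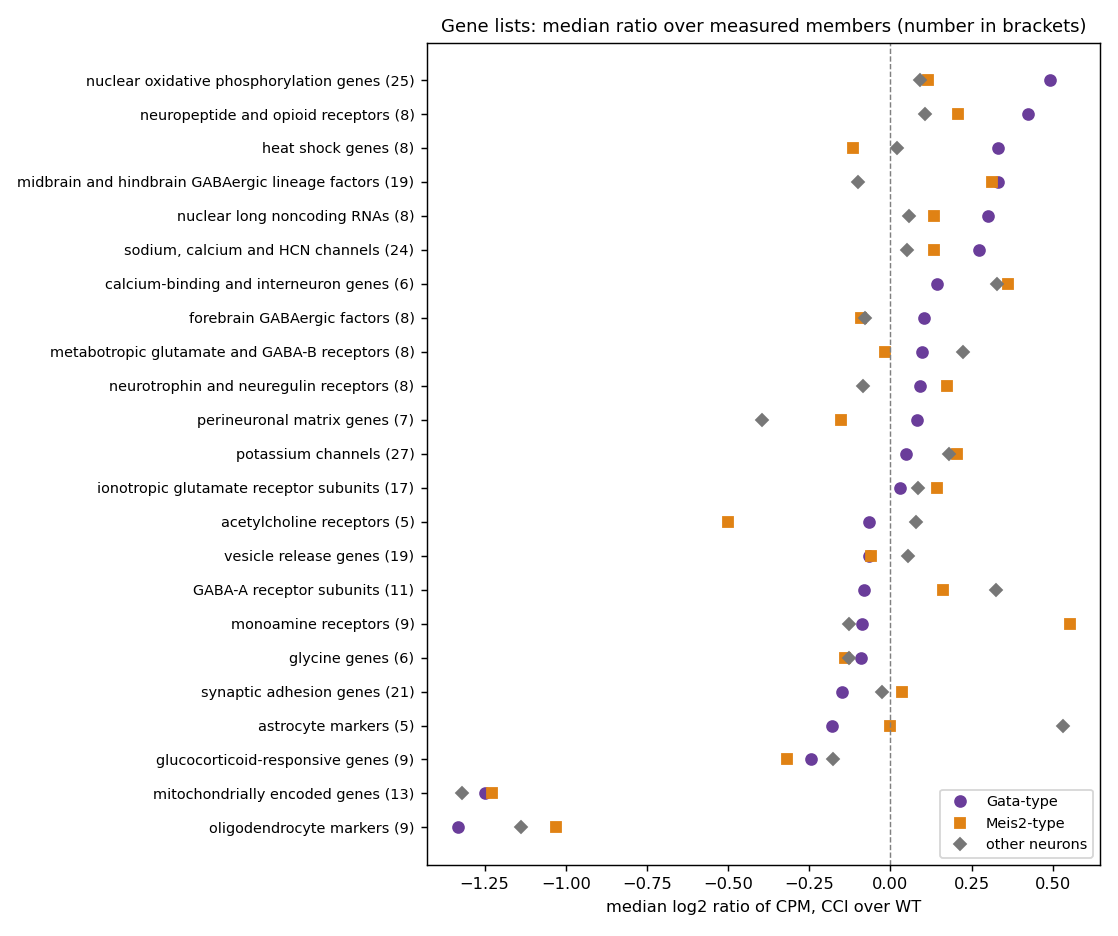
Median log2 ratio of CCI over WT for the 23 gene lists with at least 5 measured genes, in Gata-type nuclei, Meis2-type nuclei and other neurons. The oligodendrocyte list, at -1.33 in Gata-type nuclei, and the mitochondrially encoded list, at -1.25, are the lowest, and the nuclear oxidative phosphorylation list is at 0.49.

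Peptide and other marker genes were sparse in the members. Penk, which encodes enkephalin precursors, had 39 UMIs in 18 CCI nuclei and 0 in WT nuclei, a CCI level of 23.1 CPM, where 3 counts in WT would give 9.40 CPM. Penk was at 16.1 CPM in the other neurons of CCI and 6.28 CPM in the CCI oligodendrocyte gate. Npy and Nts each had 8 UMIs in CCI and 0 in WT, and Cck had 9 in CCI and 1 in WT. Otx2 and Six3, homeodomain genes of the rostral brain, had 20 and 21 UMIs in CCI and 0 in WT. Members held 1687908 UMIs in CCI and 319063 in WT, so a count of 0 in WT does not show that a gene is absent there. Calb2, the calretinin gene, was at 31.4 CPM in CCI and 28.2 CPM in WT, and the opioid receptor gene Oprm1 at 78.8 CPM in CCI and 90.9 CPM in WT. Pvalb was at 17.2 CPM in CCI and 15.7 CPM in WT, and Nos1 at 15.996 CPM in CCI and 9.40 CPM in WT.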

How the data were processed

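Nuclei from 2 libraries were analysed from the gene by barcode matrices the authors deposited, which hold raw UMI counts. Per the file headers the counts came from Cell Ranger 7.1.0, and per the submitters' processing notes build mm10 and Seurat were used; the strand and intron settings are not given in the sources used here. Of 32285 gene identifiers, 32158 (99.6%) were in GENCODE vM21.

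The gate was applied to the counts as given in the report, and members and lists were chosen with earlier results of these data known. Genes named in the text followed the rule of the 10 highest and 10 lowest by the interval bound nearest to 0 (CCI over WT, at least 100 UMIs), 12 and 12 by log2 fold change (against Meis2-type, at least 50 UMIs), 8 and 8 (Pax5), members of each list by level or ratio, and a fixed set of marker genes. Class differences were tested with edgeR 4.0.16 in R 4.3.3, with TMM scaling, filterByExpr and Benjamini-Hochberg adjustment; genes of the gate were not tested. DESeq2 1.42.0 was an alternative. Scrublet ran in Scanpy 1.11.5 at an expected 10%. Ratios carry exact conditional 95% intervals (SciPy 1.17.1). The class and ratio scripts were tested on simulated counts. The replicate in the class tests is the library, and the block takes out differences between the libraries themselves. The p-values of the class tests thus measure how far class differences vary between 2 libraries, 1 from each group. They do not measure a spread between animals. A class difference that changes with CCI cannot be told apart from that variation. Some named genes were left out of the text and are not reported here.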

Additional observations from a re-analysis of the deposited data

Results flagged for a closer look

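Ttn had a log2 ratio of CCI over WT of 4.61 in Gata-type nuclei and -1.43 in Meis2-type nuclei, so the 2 ratios had opposite signs. In Gata-type nuclei the Ttn ratio rests on 129 UMIs in 16 CCI nuclei and 1 UMI in WT. In Meis2-type nuclei it rests on 82 UMIs in 48 of 595 CCI nuclei and 12 UMIs in 8 of 99 WT nuclei. The difference between the types was not tested. Thsd7b had -0.89 in Gata-type nuclei and 0.39 in Meis2-type nuclei, again opposite and not tested.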

How the results depend on the processing

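The share of neurons in the gate depended on how the gate met the depth of the libraries. Its log2 ratio of CCI over WT was 0.71 as reported. It was -0.73 with nuclei thinned to 500 UMIs, -2.60 at 1000 UMIs, -0.99 with GABA genes at 0.1%, 1.89 with at least 2 factor UMIs and 2.79 with at least 4 GABA UMIs. Of the GABA gene gate, the share had -0.45 as reported, -2.80 at 1000 UMIs, 0.73 with 2 factor UMIs and -1.05 with 4 GABA UMIs. The Pax5-alone share had -0.76 as reported, 0.33 at 1000 UMIs and -1.66 with GABA genes at 0.1%. Genes over 1.5-fold in CCI numbered 0 higher and 1 lower at 500 UMIs, 26 and 54 at 1000 UMIs, 501 and 435 with GABA genes at 0.1%, 807 and 390 with at least 50 UMIs, and 2930 were lower with no minimum. With no minimum 13795 genes are compared, against 9735 as reported, and at the other settings fewer.

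Single genes changed sign too. At 1000 UMIs the log2 ratio of CCI over WT was 0.39 for Erbb4, 0.79 for Thsd7b, 0.62 for Atxn2l and 0.20 for Qk, and with GABA genes at 0.1% it was -0.018 for Cacna2d3 and 0.22 for Qk. Without the CCI library, differences from Meis2-type nuclei were -0.38 for Glra3, -0.059 for Hcrtr2 and -0.38 for Bcan, and without the WT library 0.84, 1.01 and 0.77. Those from other neurons were 0.13 for Tac1, 0.24 for Vcan, -0.073 for Gfra1 and 0.11 for Slc1a3 without CCI, and -1.74, -1.55, 0.79 and -1.18 without WT. That between Pax5 and other members was 0.0027 for Grm3 without CCI and -1.25 without WT. These are values with no test.

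Against Meis2-type nuclei, DESeq2 called 49 genes higher and 35 lower, edgeR with no library block 27 and 12, and 121 were higher with 2 factor UMIs. Against other neurons the counts were 79 and 123 with DESeq2, 46 and 95 with no library block, and 239 higher with 2 factor UMIs. For Pax5 nuclei they were 8 and 6 with DESeq2, 32 and 33 with no library block, 42 and 36 without doublets, and 18 and 13 with 2 factor UMIs. The cause of these changes was not tested. No paired analysis was possible because CCI and WT have 1 library each; the class fits are paired within a library by their block. Fitting only the 2 classes compared was not run for Pax5 nuclei, where it is the fit already used.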
